A study of Homo sapiens with 2 samples.

Results

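The 40 genes described here are targets that the transcription factor p53 is known to induce, chosen by name from outside the BCL2 family and the caspases. They cover cell cycle arrest, DNA repair, metabolism, death receptors and other death or survival signals. All 40 were among the 27856 genes with a value in the deposited table. The rule named them without using their measured values, but it was set with earlier results of these data known. The comparison with all genes is therefore a description only. RNA was sequenced from A549, a human lung cancer cell line, 48 h after siRNA against MILIP or a control siRNA had been introduced by lipofection. MILIP is a long noncoding RNA, labelled also as MAFG_AS1, and the comparison asks how transcripts of p53 targets stood after it had been silenced. There was 1 library per condition, from 1 cell line with 1 siRNA against MILIP, so the spread between replicates is unknown and no test was made. With a single siRNA, loss of MILIP and action of the siRNA on other transcripts cannot be told apart.

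p53 is held low in unstressed cells by MDM2, which marks it for degradation, and it accumulates after DNA damage or other stress. It then binds DNA as a tetramer and raises transcription of genes that stop the cell cycle, repair DNA, alter metabolism or sensitise cells to death. Most of its direct targets carry a response element made of a pair of 10-base repeats, in the promoter or within an intron.

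Promoters of members were searched for that element, because a member can carry it next to its start or elsewhere. RefSeq promoter sequences (GRCh38.p14, 250 bases before to 50 after each start) were matched for 30 of the 40 members. The p53 response element, allowing 2 mismatches and a spacer of 0 to 13 bases between the repeats, was found in 1 of these 30 promoters (3.33%) and in 512 of all 35116 promoters (1.46%). The single 10-base repeat with no mismatch was found in 4 of 30 (13.3%) and in 2329 of all promoters (6.63%). The consensus reads the same on both strands, so both were covered, and the repeat of AEN counted here is part of its element. The sequences below show where the matches lie, printed on the gene's own strand with the matched bases in capitals. In AEN the element runs from base −34 to base −15 before the start, within chr15:88621240-88621339 on the + strand. The repeats run from −11 to −2 in FDXR (chr17:74872995-74873054, − strand), from −132 to −123 in PLK2 (chr5:58460184-58460243, − strand) and from −59 to −50 in RPS27L (chr15:63157502-63157561, − strand). These matches describe letters only and do not show binding.
AEN: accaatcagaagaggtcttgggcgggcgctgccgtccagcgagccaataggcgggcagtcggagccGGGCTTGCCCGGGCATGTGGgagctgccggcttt
FDXR: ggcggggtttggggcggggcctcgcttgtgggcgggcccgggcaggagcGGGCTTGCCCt
PLK2: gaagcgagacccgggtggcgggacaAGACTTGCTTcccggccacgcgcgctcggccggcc
RPS27L: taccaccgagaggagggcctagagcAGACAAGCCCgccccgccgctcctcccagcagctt

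The deposited values are read counts that the authors scaled for each library, and they stand for 20300800 reads with control siRNA and 19460956 with MILIP siRNA. Any gene with fewer than 20 reads is listed at 0. MILIP itself (ENSG00000265688) stood at 29.5 in control cells and at 3.22 after its siRNA, which is 10.9% of the control. All 7 epithelial markers had values in both libraries (KRT8 at 2543 and 2875, KRT18 at 641 and 655), although KRT19, EPCAM and CDH1 were higher and KRT7 lower with MILIP siRNA by the rule given below. All 4 endothelial markers (PECAM1, VWF, CDH5, KDR), the leukocyte marker LYZ and 4 of 6 fibroblast markers were listed at 0 in both libraries, and PTPRC, CD3E and DCN had no value. The exceptions were CD14 (4.46 and 9.60) and COL1A1 (10.1 and 40.1), whose part in the results was not tested. In a bulk culture, fewer cells with a transcript and less of it per cell cannot be told apart.

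Most of the members stood higher with MILIP siRNA, by modest amounts, while 3 of the 4 TRAIL receptors and a few arrest, repair and metabolic genes stood below the control. A member was counted as higher or lower where the values plus 1 differed by at least 1.5-fold, and 39 of the 40 members had the mean value of at least 1 required of all 13521 genes compared. Of the 39, 11 (28.2%) were higher and 1 (2.56%) was lower, whereas 11.1% of all genes compared were higher and 13.8% were lower. The log2 ratio of MILIP siRNA over control siRNA was above 0 for 30 members (76.9%), against 47.8% of all genes. The median log2 ratio of the members was 0.28, with quartiles of 0.03 and 0.60, and that of all genes was −0.03. The median size of the log2 ratio, regardless of sign, was 0.38 in the members and 0.32 in all genes. Fold differences of single genes below are ratios of the values without the added 1, with 95% limits from the reads. These limits cover counting error only, and for 24 members they lay wholly above 1-fold, for 8 wholly below and for 7 on both sides.

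**Figure D1:**
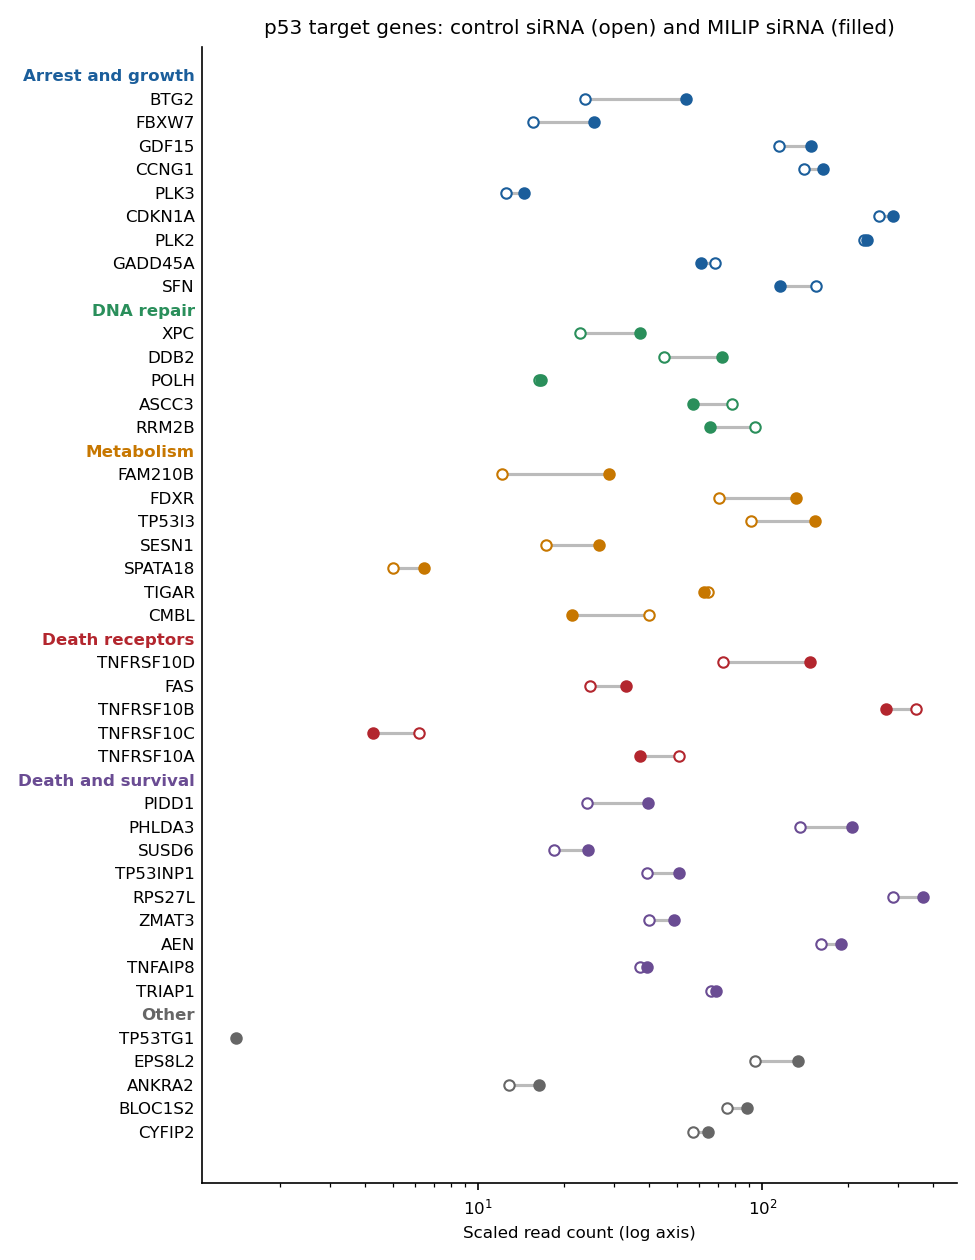
Deposited values (scaled reads, log axis) of the members in the control library (open points) and the MILIP siRNA library (filled points), grouped by role, with the control value of TP53TG1, listed at 0, not drawn. Values of the 39 members compared ran from 4.27 to 367, and in 30 of them the filled point lies to the right of the open one.

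**Figure D2:**
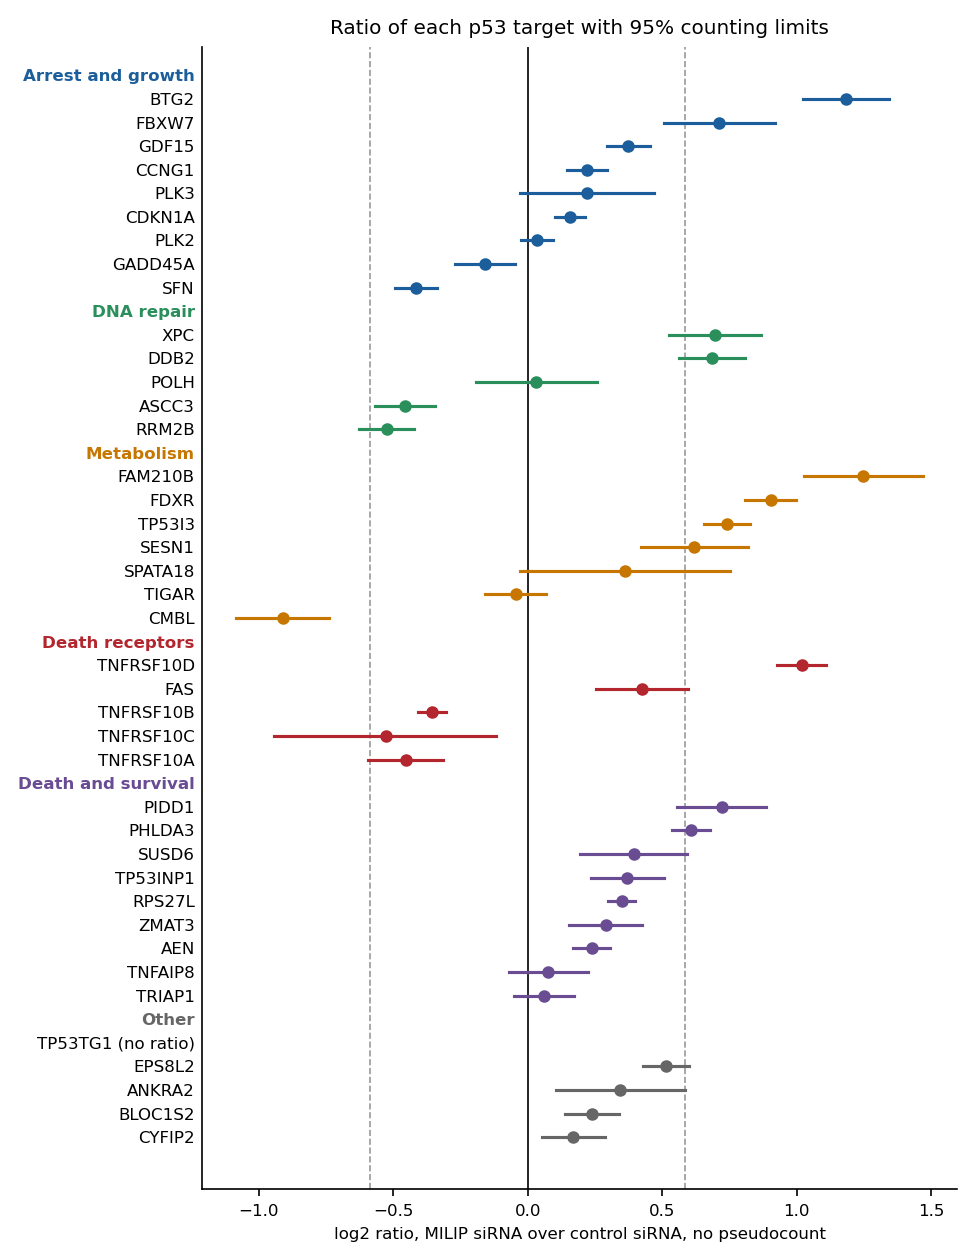
Ratio of MILIP siRNA over control siRNA for each member on a log2 axis, without pseudocount, with bars for the 95% limits from counting error and dashed lines at 1.5-fold. FAM210B, BTG2 and TNFRSF10D lie farthest to the right and CMBL farthest to the left.

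Among the 9 arrest genes, the antiproliferative factor BTG2 and the ubiquitin ligase subunit FBXW7 were higher and none was lower. These 2 genes are 22.2% of the 9, and 11.1% of all genes were higher and 13.8% lower. BTG2 (ENSG00000159388, chromosome 1, 203305491 to 203309602, + strand, GRCh38) was at 23.7 with control siRNA and 53.8 with MILIP siRNA, from 473 and 1070 reads. Its ratio of 2.27-fold (limits 2.04 to 2.54) placed it at rank 315 of 13521 genes. FBXW7, which directs cyclin E and MYC to degradation, was at 15.6 and 25.6, a ratio of 1.64-fold (limits 1.42 to 1.89). CDKN1A (chromosome 6, 36676460 to 36687339, + strand) encodes p21, the CDK inhibitor through which p53 holds cells in G1. It was at 258 with control siRNA and 288 with MILIP siRNA, for a ratio of 1.12-fold (limits 1.07 to 1.16) and rank 4679. CDKN1A, the best known arrest target, thus differed less than BTG2 did.

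The other arrest members lay between these genes or below the control. GDF15, a secreted stress cytokine, was at 114 and 148, a ratio of 1.296-fold (limits 1.23 to 1.37). CCNG1, the p53-induced cyclin G1, was at 141 and 164. The stress kinases PLK2 and PLK3 were at 227 and 233 and at 12.5 and 14.5, and the limits of both ratios included 1-fold. SFN, which encodes 14-3-3 sigma and keeps CDK1 with cyclin B out of the nucleus, was at 154 and 116, a ratio of 0.750 (limits 0.710 to 0.792). GADD45A, a stress sensor that acts at the G2 to M transition, was at 67.9 and 60.8. The median log2 ratio of the 9 arrest genes was 0.21, with 7 of them (77.8%) above 0, against 47.8% of all genes. The arrest median was 0.04 with the trends with GC content and transcript length removed, and CDKN1A was then just below 0, at −0.04.

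The repair members divided between damage recognition and the rest. DDB2 and XPC, which recognise ultraviolet lesions for nucleotide excision repair, were both higher. DDB2 (chromosome 11, 47214465 to 47239240) was at 45.0 with control siRNA and 72.4 with MILIP siRNA, for a ratio of 1.61-fold (limits 1.48 to 1.75). XPC (chromosome 3, 14145147 to 14178783) was at 22.8 and 37.0, a ratio of 1.62-fold (limits 1.44 to 1.83). RRM2B, the p53-induced subunit of ribonucleotide reductase that supplies deoxynucleotides for repair, was at 93.9 and 65.3, a ratio of 0.695 (limits 0.647 to 0.746). ASCC3, a helicase that works with alkylation repair, was at 78.3 and 57.1, a ratio of 0.729 (limits 0.675 to 0.788). Neither passed the 1.5-fold rule, but their counting limits lay below 1-fold. With the trend with GC content removed, the log2 ratio of RRM2B went from −0.52 to −0.27 and that of ASCC3 from −0.45 to −0.23. With the length trend also removed, they were −0.24 and −0.11. DDB2 and XPC were both at 0.64 with the GC trend removed. POLH, the polymerase that copies past ultraviolet lesions, was at 16.3 and 16.7. The median log2 ratio of the 5 repair genes was 0.03, and it was −0.45 without XPC and POLH, whose exons overlap genes on the opposite strand.

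The metabolic members held the widest range. FAM210B, a mitochondrial membrane protein, was at 12.1 with control siRNA and 28.8 with MILIP siRNA, from 242 and 572 reads. Its ratio of 2.37-fold (limits 2.04 to 2.77) gave it the highest place of the members, rank 296 of 13521. FDXR, the ferredoxin reductase of mitochondrial electron transfer, was at 70.3 and 131, a ratio of 1.87-fold (limits 1.752 to 1.997). TP53I3, a quinone oxidoreductase tied to reactive oxygen, was at 91.4 and 153, a ratio of 1.67-fold (limits 1.58 to 1.77). With the trend with GC content removed, the log2 ratio of TP53I3 was 0.56, short of 1.5-fold. SESN1, a sestrin that restrains mTORC1, was at 17.3 and 26.6, a ratio of 1.53-fold (limits 1.34 to 1.76).

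The remaining metabolic members were at or below the control, or too thinly counted to place. CMBL, a cytosolic hydrolase, was the lower member. It was at 40.1 with control siRNA and 21.3 with MILIP siRNA, for a ratio of 0.532 (limits 0.472 to 0.599) and rank 12677. TIGAR, which lowers fructose 2,6-bisphosphate and so slows glycolysis, was at 64.3 and 62.3, and the limits of its ratio included 1-fold. SPATA18, which takes part in the removal of damaged mitochondrial protein, was at 5.01 and 6.44, from few reads, with limits of 0.981 to 1.69. The median log2 ratio of the 7 metabolic genes was 0.59.

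**Figure D3:**
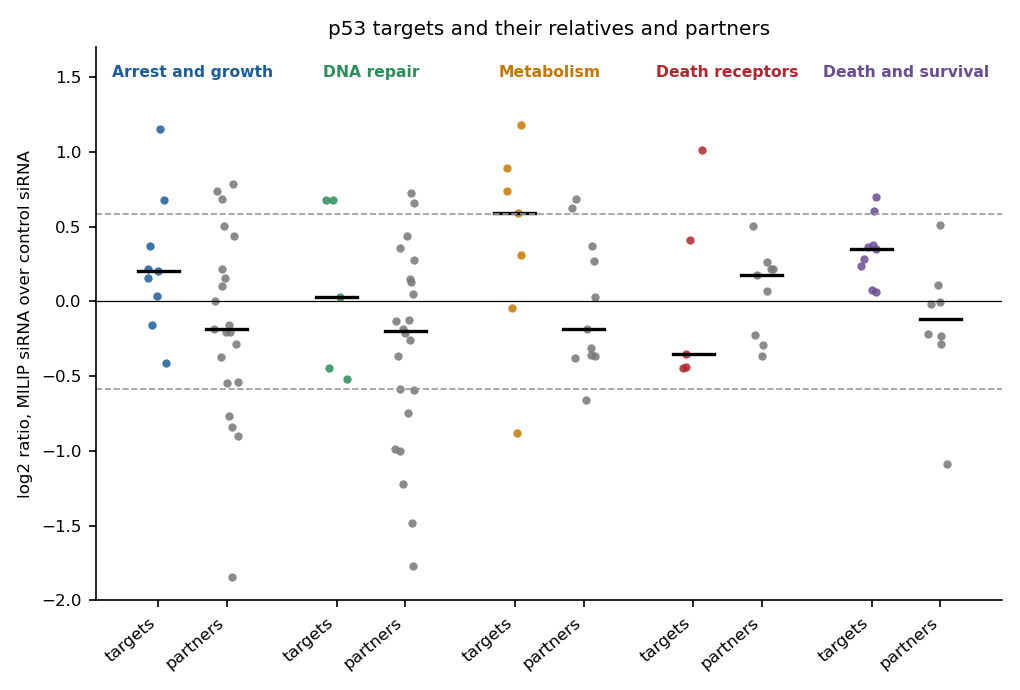
Log2 ratio of MILIP siRNA over control siRNA (values plus 1) for each member and for its relatives and partners, by role, with bars at the medians and dashed lines at 1.5-fold. The metabolic members have the highest median, 0.59, and the death receptor members the lowest, −0.36.

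Death receptors were split, and within the TRAIL receptor family the decoy TNFRSF10D was higher while the other members stood below the control. TRAIL receptors 1 and 2, encoded by TNFRSF10A and TNFRSF10B, carry a death domain and can start caspase activation. TNFRSF10C has no death domain and TNFRSF10D a truncated one, so that both bind TRAIL without passing on a full death signal. The 4 genes lie beside one another on chromosome 8. TNFRSF10D was at 72.8 with control siRNA and 147 with MILIP siRNA, for a ratio of 2.03-fold (limits 1.90 to 2.16), from 1453 and 2933 reads. TNFRSF10A was at 51.0 and 37.2, a ratio of 0.730 (limits 0.663 to 0.803). TNFRSF10B, the most abundant receptor, was at 349 and 272, a ratio of 0.781 (limits 0.754 to 0.809). TNFRSF10C was at 6.16 and 4.27, a ratio of 0.694 (limits 0.520 to 0.922). These 3 did not reach 1.5-fold, although their limits lay below 1-fold. Exons of TNFRSF10B overlap those of RHOBTB2 on the opposite strand, which was at 37.8 and 62.7, and those of TNFRSF10A overlap TNFRSF10A-AS1, at 3.46 and 1.91. The genes are alike in sequence, and how reads that match several of them were counted is not given in the sources used here.

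To compare levels between receptors, values were divided by the exon length of each gene in kilobases. TNFRSF10B was at 67.6 per kb with control siRNA and 52.8 per kb with MILIP siRNA, and TNFRSF10A was at 17.3 and 12.6 per kb. TNFRSF10D was at 20.6 and 41.7 per kb, and TNFRSF10C at 3.30 and 2.29 per kb. The sum over the 4 receptors was 108.8 per kb and 109.4 per kb, so that the total was nearly equal in the pair of libraries. The share of TNFRSF10D in that sum was 18.9% with control siRNA and 38.1% with MILIP siRNA, and that of TNFRSF10B was 62.2% and 48.3%. Both decoys together made up 21.9% and 40.2%. The ratio of TNFRSF10B to TNFRSF10D per kb was thus 3.29 with control siRNA and 1.27 with MILIP siRNA.

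**Figure D4:**
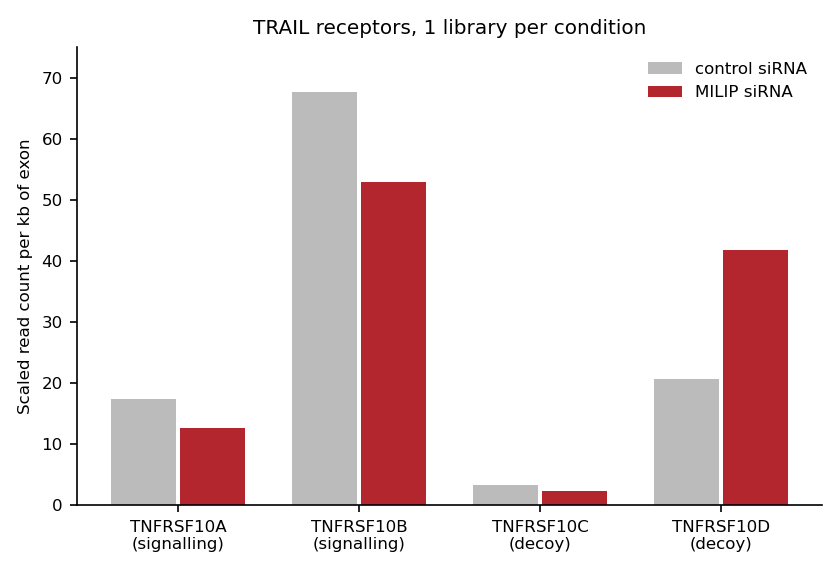
Levels of the 4 TRAIL receptor genes per kb of exon (scaled reads per kb), as bars from 0 for control siRNA and MILIP siRNA, 1 library each. The bar of TNFRSF10D goes from 20.6 to 41.7 per kb while that of TNFRSF10B goes from 67.6 to 52.8 per kb.

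FAS, the receptor of FAS ligand and the death receptor outside this family, was at 24.7 with control siRNA and 33.2 with MILIP siRNA. Its ratio of 1.34-fold (limits 1.19 to 1.51) was short of 1.5-fold, and with the trend with GC content removed it passed that threshold. The TRAIL gene TNFSF10 was listed at 0 in both libraries and FASLG, the gene of FAS ligand, had no value. The adaptor FADD was at 18.8 and 27.1 and caspase-8 (CASP8) at 54.3 and 63.4. The median log2 ratio of the 5 death receptor members was −0.36, and it was 0.28 over TNFRSF10C and TNFRSF10D, the pair without an opposite-strand overlap. None of the 9 partners of the receptors that were compared passed 1.5-fold in either direction, against 11.1% of all genes higher and 13.8% lower.

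All 9 of the death and survival genes had a log2 ratio above 0, against 47.8% of all genes. PIDD1 and PHLDA3, 2 of the 9 (22.2%), were higher by the 1.5-fold rule, against 11.1% of all genes. With the trend with GC content removed, the log2 ratios were 0.52 for PIDD1 and 0.51 for PHLDA3, and neither passed. PIDD1, which assembles the caspase-2 activating complex, was at 24.1 with control siRNA and 39.7 with MILIP siRNA, for a ratio of 1.65-fold (limits 1.47 to 1.85). PHLDA3, an inhibitor of AKT at the membrane, was at 136 and 207, a ratio of 1.52-fold (limits 1.450 to 1.599). RPS27L, the p53-induced copy of a ribosomal protein, was the most abundant of the group at 288 and 367, a ratio of 1.27-fold (limits 1.23 to 1.32). AEN, a nuclease of apoptosis whose promoter is printed above, was at 161 and 190, a ratio of 1.18-fold (limits 1.12 to 1.24). TP53INP1, which promotes p53 phosphorylation and autophagy, was at 39.3 and 50.8, and SUSD6 was at 18.5 and 24.3. ZMAT3, an RNA-binding protein, was at 39.97 and 48.87. The survival genes TRIAP1 and TNFAIP8 were at 65.8 and 68.6 and at 37.2 and 39.2, with limits that included 1-fold.

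Of the 4 members whose promoter sequence is printed, FDXR alone passed 1.5-fold. The ratios of AEN and RPS27L were 1.18-fold and 1.27-fold, and that of PLK2 was 1.03-fold with limits of 0.984 to 1.07. The other 5 members fall in none of the roles above. EPS8L2, an actin regulator, was at 93.9 and 134, a ratio of 1.43-fold (limits 1.34 to 1.51). BLOC1S2 was at 74.8 and 88.4, ANKRA2 at 12.9 and 16.3, and CYFIP2 at 57.0 and 64.2, all short of 1.5-fold. The noncoding RNA gene TP53TG1 had a listed value of 0 with control siRNA but 1.41, or 28 reads, after MILIP siRNA, and was the member left out by the filter.

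**Figure D5:**
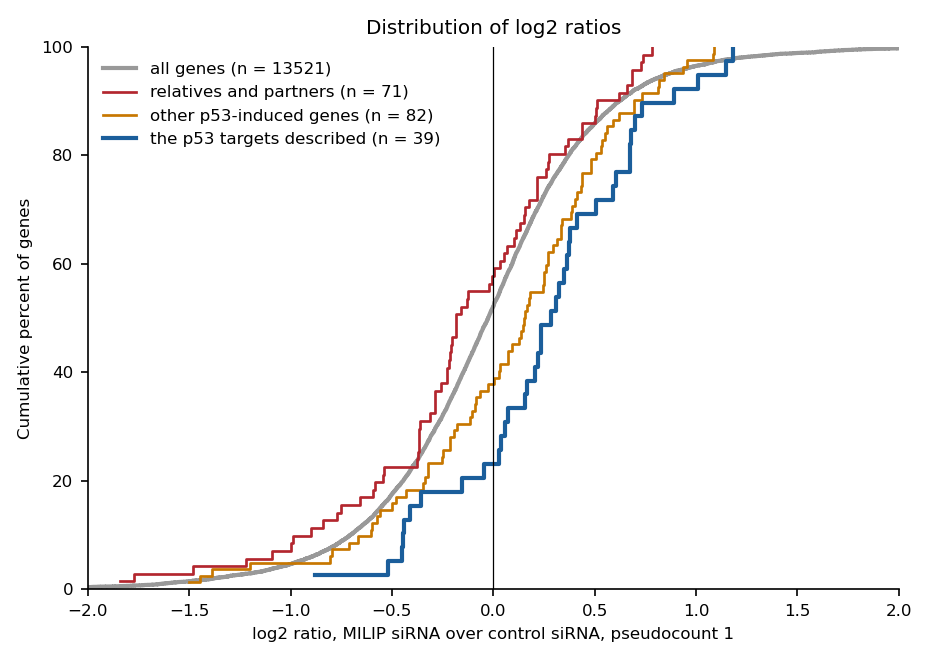
Cumulative share of genes by log2 ratio of MILIP siRNA over control siRNA (values plus 1) for all 13521 genes, 71 relatives and partners, 82 other p53-induced genes and 39 members. The curve of the members lies to the right of that of all genes up to the highest member, FAM210B at 1.18, with medians of 0.28 and −0.03.

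Of 20 genes compared that act on p53 itself, 2 (10%) were higher and 3 (15%) were lower, shares near the 11.1% and 13.8% of all genes, and their median log2 ratio was −0.08. TRIML2, which the study follows as a ligase for SUMO on p53, was higher, at 8.87 with control siRNA and 56.9 after MILIP siRNA. MDM2, at once the main inhibitor of p53 and its target, was at 120 and 132, a ratio of 1.10-fold (limits 1.04 to 1.17). PPM1D, a phosphatase that p53 induces and that turns its signal off, was at 32.3 and 43.4. MDM4, a second inhibitor, was at 43.02 and 29.01. The lower regulators were the damage kinase ATR (67.62 and 28.96), the deubiquitinase USP7 (211 and 133) and the acetyltransferase EP300 (87.3 and 56.8). HIPK2, a kinase of p53, was at 183 and 123, short of the threshold by a small margin. CDKN2A, whose product p14ARF binds MDM2, had no value in either library.

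Genes that work with the members, or are their relatives, are not themselves all p53 targets and were compared for that reason. Of 71 such genes compared, 7 (9.86%) were higher and 14 (19.7%) were lower, against 11.1% and 13.8% of all genes. Their median log2 ratio was −0.18, and that of all genes was −0.03. Of 22 partners of the repair members, 8 (36.4%) were lower and 2 (9.09%) were higher. DDB1, which pairs with DDB2, was at 366 and 217, and CUL4A, the scaffold of their ligase, was at 108 and 53.6. CETN2, which binds XPC, was at 58.4 and 16.4, so that all 3 were lower. The helicase ERCC3 (74.6 and 31.5) and the nuclease subunit ERCC4 (25.5 and 8.50) were lower as well, whereas the nuclease ERCC5 was at 4.61 and 7.84. POLI, POLK and ASCC2, relatives or partners of POLH and ASCC3, were also lower.

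Among cell cycle partners the inhibitor CDKN1B (p27) was higher, at 80.3 and 135, as were CCNG2 (12.6 and 22.4) and CCND3 (169 and 272). CDK2, the kinase that p21 inhibits, was at 40.3 with control siRNA and 10.5 with MILIP siRNA, for a ratio of 0.261 (limits 0.223 to 0.304). Cyclin D1 (CCND1) was at 762 and 408, CUL1 at 111 and 61.2 and BTG3, a relative of BTG2, at 26.2 and 15.0, all lower. In the other families, SESN3 (9.37 and 15.6) and DDIT4 (72.7 and 112) were higher along with SESN1, and SESN2 was at 17.9 and 21.8. FAM210A, the relative of FAM210B, was lower at 32.3 and 20.1, and PHLDA2, the relative of PHLDA3, was lower at 61.4 and 28.3. FAM210B and PHLDA3 thus each had a relative past 1.5-fold in the other direction, whereas the 3 sestrins were all above the control.

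Properties of the transcripts that the choice of members did not use moved with the ratios. Across all genes the median log2 ratio was −0.21 in the lowest of 5 equal classes of transcript GC content and 0.18 in the highest. Of the 39 members, 31 lay above the median of all genes in their own class, and the member medians were 0.22, 0.31, 0.10, 0.38 and 0.56 from lowest to highest GC. With the trend with GC content removed, 10 of the 39 members were higher, against 10.9% of all genes. TP53I3, PIDD1 and PHLDA3 no longer passed 1.5-fold, and FAS and TP53INP1 did. Exons of 15 of the 39 members overlap exons of a gene on the opposite strand, and whether counting used the strand is not given in the sources used here. If it did not, reads from the stretches that such genes share cannot be assigned to either partner. The overlapped members include 5 of the 11 higher ones, FBXW7, XPC, SESN1, TP53I3 and PIDD1. PIDD1 overlaps the ribosomal gene RPLP2 (780 and 762) and XPC overlaps LSM3 (71.0 and 84.6), whereas FAM228B, which overlaps TP53I3, had 1.252 and 1.508. Of the 24 members with no such overlap, 6 were higher and 18 had a log2 ratio above 0, against 11.1% and 47.8% of all genes.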

How the data were processed

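Total RNA of A549 cells given control siRNA or MILIP siRNA was sequenced as 1 library each, and nothing in the labels describes separate cultures. The submitters' processing notes name TopHat2 2.0.12, HTSeq 0.6.1 and the build hg38. The annotation, the strand setting, the scaling and the filter on low counts are not given in the sources used here. The deposited values are a signal, namely read counts scaled by the authors. All values above 0 were whole multiples of a step of 0.0501 or 0.0503 (within 0.01 of a step), the smallest was 20 reads, and lower genes are listed at 0. Taking 1 step as 1 read gave 20300800 and 19460956 reads. The authors' columns of fold changes, p-values, q-values and calls hold their own comparison and were not used.

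The log2 ratio of MILIP siRNA to control siRNA was taken after adding a pseudocount of 1, which understates the change of low genes, for 13521 genes whose mean was at least 1. A difference of 1.5-fold counted as higher or lower. The 95% Clopper-Pearson limits on the ratio of reads carry no pseudocount. With 1 library per condition no test against the spread between replicates was possible, and no p-value is given. Coordinates, exon overlap, exon length and transcript GC content came from GENCODE release 29 (GRCh38).

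The members and lists were chosen with earlier results of these data known. Named are all members, MILIP, the p53 regulators, BBC3, BAX and PMAIP1, the relatives and partners past 1.5-fold or of a member's family, and the 3 highest and 3 lowest ratios of the other p53-induced and DREAM lists. A few genes that this rule or the marker lists hold are not reported here. FADD, CASP8, CDKN2A, overlapping genes and marker genes are named beside the results they touch. The windows around single repeats were chosen after the scan had been seen. Alternatives were a pseudocount of 0.1 or none, scaling by the median of ratios or the library total, no filter or a mean of at least 5, a 2-fold threshold, removal of trends with GC content and length (50 bins), and members without opposite-strand overlap. The calculations were tested on simulated data. The tools were scipy 1.17.1, pandas 2.3.3, numpy 2.4.6, matplotlib 3.10.9 and Python 3.11.15.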

Additional observations from a re-analysis of the deposited data

How the results depend on the processing

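No paired analysis was possible because only 1 library was made from each culture condition. Leaving out a replicate was impossible too. All calls of the 39 members were kept with a pseudocount of 0.1 or none, with scaling by the median of ratios or the library total, and with no filter or a mean of at least 5. TIGAR changed sign with the library total, and scaling moved the median of all genes by less than 0.1. The 2-fold threshold left 3 of 39 members higher (BTG2, FAM210B, TNFRSF10D) and 0 lower. Of all genes, 3.48% were higher and 4.62% were lower at that threshold. Past it in either direction were 2 of 20 p53 regulators and 6 of 71 relatives and partners. So were 6 of 82 other p53-induced genes and 0 of 35 DREAM genes. Removal of the GC and length trends gave 2 members lower and 3 regulators past 1.5-fold, and moved the median log2 ratio to 0.038 for arrest, 0.46 for metabolism and 0.47 for death and survival genes, the last being 0.51 with the GC trend alone removed. Without members that overlap a gene on the opposite strand, 6 of 24 members were higher, against 11.1% of all genes. The medians then turned to −0.45 for repair and to 0.28 for death receptors, with fewer genes in each. Members with few reads, such as SPATA18 and TNFRSF10C, have the widest counting limits.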

Other observations

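Outside the 40 members, the p53-induced genes of the BCL2 family differed from one another. BBC3, which encodes the BH3-only protein PUMA, was at 17.1 with control siRNA and 51.7 with MILIP siRNA, for a ratio of 3.02-fold (limits 2.67 to 3.42). BAX, the pore-forming effector, was at 165 and 202, and PMAIP1, which encodes NOXA, was lower at 34.1 and 22.2. Among 82 other p53-induced genes compared, 12 were higher (14.6%) and 10 were lower (12.2%), near the 11.1% and 13.8% of all genes. Their median log2 ratio was 0.15, and 51 (62.2%) were above 0, against 47.8% of all genes. With scaling by the library total, 16 of the 82 were higher and 8 lower, against 12.9% and 12.1% of all genes. The highest ratios of the 82 were those of PERP, a desmosome protein (127 and 270), ORAI3, a calcium channel subunit (5.76 and 13.3), and IGFBP3, a binding protein of insulin-like growth factors (241 and 469). Their lowest were those of ABHD4 (118 and 41.1), the growth factor TGFA (18.5 and 6.13) and FOSL1, a subunit of AP-1 (126 and 47.3).

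Genes that the DREAM complex represses when p21 is induced, most of them needed for mitosis, were for the most part near the control level. Of 35 compared, 1 was higher (2.86%) and 2 were lower (5.71%), against 11.1% and 13.8% of all genes. Their median log2 ratio was −0.16, against −0.03 for all genes. It was above 0 for 12 genes (34.3%) and below 0 for 23, whereas 47.8% of all genes were above 0. CENPA, the centromeric histone, was higher at 29.6 and 55.9, and BIRC5 (117 and 160) and CDC25C (15.7 and 21.4) came next without reaching 1.5-fold. The spindle checkpoint gene BUB1B was at 60.1 and 36.6 and the anaphase activator CDC20 at 175 and 115, both lower, followed by PLK1 at 145 and 99.5. With either other scaling, 1 DREAM gene was lower in place of 2.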
